A study of Mus musculus with 12 samples.

Results

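The genes examined here encode 10 proteins that sit on or build lipid droplets, the 3 CIDE genes (Cidea, Cideb and Cidec), the 5 perilipin genes (Plin1 to Plin5) and the 2 FITM genes (Fitm1 and Fitm2). They were chosen by name, and every probe whose transcript accession belonged to one of them was taken, which gave 12 of the 55681 probes on the arrays, with 2 probes each for Cideb and Cidec and 1 for every other gene. RNA of subcutaneous white adipose tissue (scWAT) and brown adipose tissue (BAT) from wild-type (WT) and Lr11 -/- mice had been hybridised to one-colour Agilent arrays, with 3 arrays for each of the 4 groups. All mice were C57Bl6/J males of 12 weeks on a high-fat diet (HFD) with 60% of its calories from fat, and its length is unclear, as the labels state 4 weeks in one place and feeding from weaning on in another. The knockout, which removes the receptor LR11 from the whole animal, was compared with wild-type littermates, and the RNA came from whole ground tissue, with every cell type that the tissue held. The authors give an n of 3 for each RNA source, without saying whether RNA of single or pooled mice was used. The labels do not say which arrays came from separate mice. The p values therefore measure only the spread between these arrays, which may in part be technical.

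A lipid droplet is a core of triglyceride under a single layer of phospholipid, and its surface proteins decide how fat enters and leaves it. Perilipins coat the droplet and hold lipases away from it until noradrenaline signals through protein kinase A. CIDE proteins gather where droplets touch and let lipid pass from the smaller to the larger one, and FITM proteins in the endoplasmic reticulum help new droplets to bud off. White adipocytes carry a single large droplet coated with perilipin 1, whereas brown adipocytes carry many small droplets close to mitochondria, and Cidea and Plin5 are known as genes of brown and other oxidative cells.

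Values are log2 intensity minus the 75th percentile of the array. A level of 0 equals that percentile and a difference of 1 is a 2-fold change. Between 32377 and 37002 spots an array were well above background and none was saturated. Sorl1, the gene that encodes LR11, lay between 0.91 and 1.15 in WT scWAT and between -3.57 and -2.87 in Lr11 -/- scWAT, and the log2 difference was -4.34 (adjusted p = 0.0063 in limma). The corresponding value for BAT was -3.63 (adjusted p = 0.032 in limma). Replicate 1 of each group belonged to a first array series and replicates 2 and 3 to a second. Hoxc9 and Hoxc10, homeobox genes of the rear body that were looked up after the values were seen, did not overlap between scWAT and BAT arrays. Hoxc9 lay between 1.08 and 3.02 on the 6 scWAT arrays and between -6.87 and -5.79 on the 6 BAT arrays, where it was not well above background. Zic1 and Lhx8, markers of classical brown fat, did not separate the depots. Zic1 was 0.76 and 0.46 on WT scWAT replicates 2 and 3, within the -0.71 to 1.49 of the BAT arrays, and Lhx8 was 2.81 on WT scWAT replicate 1, above every BAT array.

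Arrays of scWAT stood apart from their own groups. Over the 8 adipocyte marker genes (Adipoq, Fabp4, Lpl, Lep, Retn, Cfd, Slc2a4 and Pparg) the median level was 3.30 on WT scWAT replicate 2, against 6.56 and 8.22 on the other WT scWAT arrays and 6.73 to 7.61 on the remaining arrays. Over 12 skeletal muscle genes such as Acta1 and Ckm, 5 arrays had a median of 6.46 to 9.14 (WT scWAT replicate 3, Lr11 -/- scWAT replicate 1, WT BAT replicates 1 and 3 and Lr11 -/- BAT replicate 1), and the other 7 had medians of -3.44 to -2.37. Over 8 brown adipocyte genes, Lr11 -/- scWAT replicates 2 and 3 had medians of at least 4.65, above the 2.19 to 4.50 of the BAT arrays, whereas Lr11 -/- scWAT replicate 1 had 1.03 and the WT scWAT arrays had -0.73 to 0.23. Lr11 -/- scWAT replicate 1 also had a median of 0.42 over 6 epithelial genes, against -4.56 to -3.25 on the other arrays. Ucp1, the uncoupling protein of brown fat, reached 10.05 in Lr11 -/- scWAT and 10.07 in BAT. The part that such differences in tissue make-up had in the results below was not tested, and fewer cells of a type cannot be told apart from less RNA per cell in whole tissue.

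**Figure D1:**
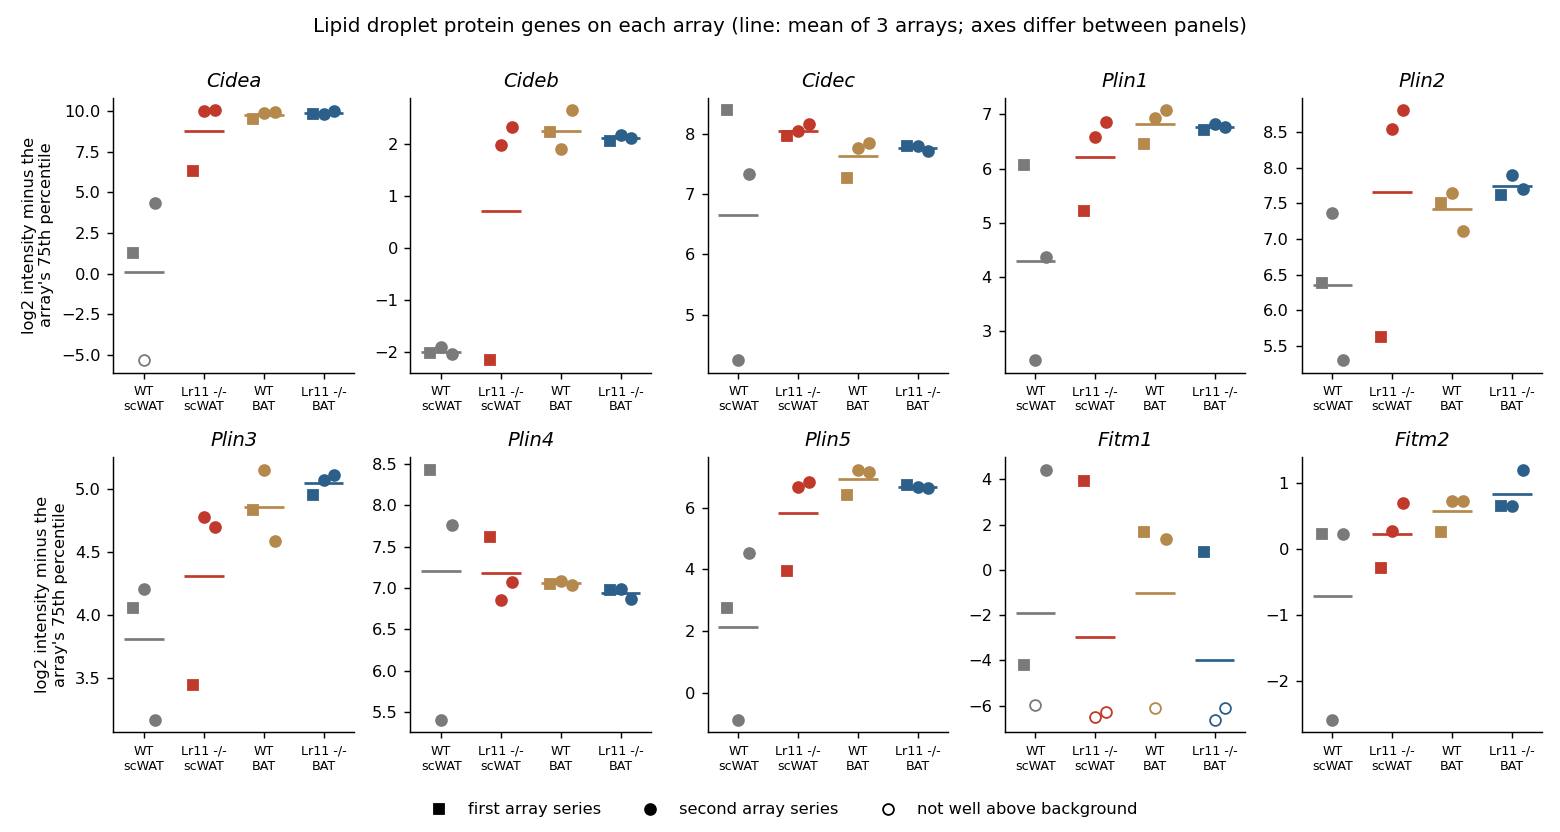
Log2 intensity minus the array's 75th percentile (vertical axes, which differ between panels) of each gene's brightest probe in WT and Lr11 -/- scWAT and BAT. Each symbol is an array, squares being the first and circles the second array series, open symbols are not well above background, and lines are means of 3 arrays; the BAT arrays lie close together for every gene but Fitm1, and the scWAT arrays are spread.

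Promoters are shown for the perilipin pair that lie side by side and differ in pattern, and for Plin1 and Cidec, the adipocyte genes of the set that share a motif. The sequences are from RefSeq on build GRCm38.p6 and run from 250 bases before to 50 bases after the gene start, 5′ to 3′ on the gene's strand. Capitals mark AGGTCA, the hexamer that nuclear receptors such as PPAR and RXR bind, or TTGCNCAA, a C/EBP motif, on either strand. Cidec and Plin5 each had 2 such windows. The one shown was picked for having the most matches to these motifs, or as the first of equals.
Plin1, chr7:79732727-79733026, minus strand: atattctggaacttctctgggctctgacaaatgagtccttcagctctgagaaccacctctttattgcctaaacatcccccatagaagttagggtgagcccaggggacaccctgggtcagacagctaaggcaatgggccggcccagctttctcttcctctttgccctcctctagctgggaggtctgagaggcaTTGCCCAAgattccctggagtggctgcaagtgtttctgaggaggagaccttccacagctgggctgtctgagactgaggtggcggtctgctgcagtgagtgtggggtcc
Cidec, chr6:113434715-113435014, minus strand: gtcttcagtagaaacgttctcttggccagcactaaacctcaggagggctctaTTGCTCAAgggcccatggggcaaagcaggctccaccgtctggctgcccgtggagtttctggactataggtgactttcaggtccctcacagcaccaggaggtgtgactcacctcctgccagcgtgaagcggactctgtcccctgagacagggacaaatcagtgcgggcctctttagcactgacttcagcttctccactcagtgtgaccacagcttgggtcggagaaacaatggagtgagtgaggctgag
Plin5, chr17:56117499-56117798, minus strand: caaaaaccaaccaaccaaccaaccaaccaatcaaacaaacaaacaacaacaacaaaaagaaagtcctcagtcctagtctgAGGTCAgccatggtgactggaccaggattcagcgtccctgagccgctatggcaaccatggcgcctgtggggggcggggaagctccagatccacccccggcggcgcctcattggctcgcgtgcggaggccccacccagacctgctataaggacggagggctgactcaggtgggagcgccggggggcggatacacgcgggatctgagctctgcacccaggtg
Plin4, chr17:56109733-56110032, minus strand: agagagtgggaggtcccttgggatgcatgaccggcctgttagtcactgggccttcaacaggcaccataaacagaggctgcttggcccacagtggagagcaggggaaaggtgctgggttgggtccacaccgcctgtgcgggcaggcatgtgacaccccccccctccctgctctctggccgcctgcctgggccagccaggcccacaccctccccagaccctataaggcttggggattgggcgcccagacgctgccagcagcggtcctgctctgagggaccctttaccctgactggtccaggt
Of the members 9 had an entry in the promoter table, in 11 windows. AGGTCA was found in windows of Plin5 and Plin2, and in 16.3% of all 32851 windows. TTGCNCAA was found in the window of Plin1 and in 1 of the 2 windows of Cidec, the one shown, and in 2.94% of all windows. No window shown held both motifs. The DR1 repeat of that hexamer, the full element of PPAR and RXR, was in none of the members' windows and in 0.0396% of all. CCAAT, not in capitals above, was in windows of Plin2, Plin3, Plin4 and Plin5 and in 37.4% of all. A match of letters is a description, and no match says only that the letters are not in this window.

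Cidea, whose protein enlarges droplets in brown adipocytes and is a marker of brown and beige fat, was the member with the widest range, from -5.31 to 10.06. Its levels on WT scWAT replicates 1, 2 and 3 were 1.27, -5.31 and 4.34, the second being not well above background. Those on Lr11 -/- scWAT were 6.31, 10.04 and 10.06. The genotypes did not overlap, and replicates 2 and 3 of Lr11 -/- scWAT were just above the highest BAT array. In BAT WT arrays held 9.52, 9.86 and 9.93 and Lr11 -/- arrays 9.82, 9.82 and 9.98. The log2 difference between the genotypes in scWAT was 8.70 (SE 1.91, adjusted p = 0.040 from limma), or 8.42 when the WT array that was too dim was set to the faintest signal that passed the background test. Within the first series it was 5.04 and within the second 10.53, or 10.11 with the same bound. In BAT the genotypes differed by 0.10 (95% interval -4.13 to 4.33 from limma).

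The scWAT call for Cidea was lost when any of 9 single arrays was left out. The adjusted p, from limma in each case, rose to 0.0504 without WT scWAT replicate 2, where the difference was 5.996, and to 0.16 and 0.17 without Lr11 -/- scWAT replicates 2 and 3, where it was 8.08 and 8.07. It was 0.064 to 0.069 without any 1 of the BAT arrays, which left the difference at 8.70.

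Cidec, which fuses droplets in white adipocytes and gives them their single large droplet, had levels of 8.39, 4.25 and 7.33 in WT scWAT, against 7.95, 8.04 and 8.16 in Lr11 -/- scWAT. The low WT array was replicate 2, on which the adipocyte markers were also low, and of the other WT arrays replicate 1 lay above and replicate 3 below all Lr11 -/- arrays. The difference was 1.39 (SE 0.79, adjusted p = 0.28 from limma), and it was 0.19 without WT scWAT replicate 2. Cidec lay between 7.26 and 7.84 on the BAT arrays, and all 3 Lr11 -/- scWAT arrays were above all 3 Lr11 -/- BAT arrays, with a difference of BAT minus scWAT of -0.29 (adjusted p = 0.93 from limma). Its second probe gave 1.43 for the genotypes in scWAT (adjusted p = 0.36 from limma), and -0.13 between the tissues of Lr11 -/- mice, where its arrays overlapped (exact permutation p = 0.5). Within an array, the log2 ratio of Cidea to Cidec was 7.31 higher in Lr11 -/- than in WT scWAT. The genotypes did not overlap in it (two-sided exact permutation test, p = 0.1, the smallest that 3 arrays against 3 allow). Its size is limited by background, as Cidea was not well above background on WT scWAT replicate 2. The change of this ratio from WT to Lr11 -/- BAT was -0.04 (exact permutation p = 0.6).

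Cideb, a relative known mainly from liver, where it lipidates very-low-density lipoproteins, separated the arrays into a low and a high set. It lay at -2.03, -1.91 and -2.04 in WT scWAT and at -2.16, 1.98 and 2.34 in Lr11 -/- scWAT. Only replicate 1 of Lr11 -/- scWAT stayed with the WT arrays, and the other 2 were within the range of the BAT arrays, 1.90 to 2.66. The genotype difference in scWAT was 2.72 (SE 0.91, adjusted p = 0.093 from limma), being -0.13 in the first series and 4.14 in the second. Without Lr11 -/- scWAT replicate 1 it was 4.16 (adjusted p = 7.4e-05 from limma). The second Cideb probe differed by 2.41 (adjusted p = 0.14 from limma) and put the same arrays high. It was tested only through the BAT groups, where it was high. WT scWAT replicate 2 and Lr11 -/- scWAT replicate 1 were not well above background on it. With the dim WT array set to the faintest signal that passed the background test, the difference was 2.29. In the gene table Cideb overlaps Nop9 and Ltb4r2.

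Plin1, the perilipin of white and brown adipocytes and the main target of protein kinase A on the droplet, lay at 6.07, 2.47 and 4.37 in WT scWAT. In Lr11 -/- scWAT it lay at 5.22, 6.58 and 6.86. The groups overlapped because WT replicate 1 was above Lr11 -/- replicate 1. The difference was 1.92 (SE 0.74, adjusted p = 0.13 from limma), with -0.86 in the first series and 3.30 in the second. Without WT scWAT replicate 1 it was 2.80 (adjusted p = 0.023 from limma), and without WT scWAT replicate 2 it was 0.997. On the BAT arrays Plin1 kept between 6.46 and 7.08.

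Plin5, which ties droplets to mitochondria in cells that burn fat, had a pattern over the arrays close to that of Cidea. Its levels were 2.76, -0.87 and 4.54 in WT scWAT, against 3.94, 6.67 and 6.85 in Lr11 -/- scWAT, and the BAT arrays held 6.40 to 7.24. Replicates 2 and 3 of Lr11 -/- scWAT were within the BAT range, and replicate 1 was below WT replicate 3. The genotype difference was 3.68 (SE 1.16, adjusted p = 0.080 from limma), 1.18 in the first series and 4.93 in the second. Without WT scWAT replicate 3 it was 4.88 (adjusted p = 0.019 from limma) and without Lr11 -/- scWAT replicate 1 it was 4.62 (adjusted p = 0.025 from limma), and without WT scWAT replicate 2 it was 2.17. Over the 12 arrays, which share their tissue and series differences, Plin5 and Cidea had a Pearson r of 0.985, the highest of any 2 members.

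Plin4 lies next to Plin5 in the genome and coats newly formed, small droplets in white adipocytes. Its levels were 8.43, 5.41 and 7.76 in WT scWAT, against 7.62, 6.85 and 7.07 in Lr11 -/- scWAT, and the genotypes differed by -0.02 (95% interval -1.35 to 1.31, adjusted p = 0.99 from limma). The one low array was again WT scWAT replicate 2, without which the difference was -0.92 (adjusted p = 0.12 from limma). The 2 highest of the 12 arrays were WT scWAT replicates 1 and 3, and all BAT arrays lay between 6.87 and 7.09. Within an array, the log2 ratio of Plin4 to Plin1 was 2.90 ± 0.52 (SD, n=3) in WT scWAT and 0.23 ± 0.33 (SD, n=3) in WT BAT. It did not overlap between these groups (exact permutation p = 0.1). Between the genotypes this ratio overlapped in both tissues. It changed by -1.94 in scWAT (exact permutation p = 0.2) and by -0.06 in BAT (exact permutation p = 0.9). The ratios of Plin5 to Plin1, Plin2 to Plin1 and Fitm1 to Fitm2 also overlapped between the genotypes in both tissues. In scWAT they changed by 1.76, -0.61 and -1.98 (exact permutation p = 0.4, 0.9 and 0.6).

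Plin2, found on droplets of nearly all cells and in macrophages laden with fat, lay at 6.39, 7.36 and 5.30 in WT scWAT. In Lr11 -/- scWAT it lay at 5.63, 8.54 and 8.81. The second-series Lr11 -/- arrays were above all 6 BAT arrays, which held 7.11 to 7.90. The difference was 1.31 (SE 0.75, adjusted p = 0.28 from limma), -0.76 in the first series and 2.34 in the second. It was 2.32 without Lr11 -/- scWAT replicate 1 (adjusted p = 0.011 from limma). On WT scWAT replicate 2, where Plin1, Plin4 and Plin5 were at their lowest, Plin2 was the highest of its group, and so was the median of 7 macrophage genes, at 4.38 against 1.64 to 3.00 on the other WT scWAT arrays. Plin3 (4.21) and Cideb (-1.91) were also highest of the WT scWAT group there. On Lr11 -/- scWAT replicates 2 and 3, where Plin2 was highest of all arrays, the macrophage median was 1.73 and 1.51. A link between Plin2 and macrophages was not tested.

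Plin3, a perilipin that moves between cytosol and droplet, had the narrowest range of the members, from 3.17 to 5.15. It lay at 4.05, 4.21 and 3.17 in WT scWAT and at 3.44, 4.78 and 4.69 in Lr11 -/- scWAT. The genotypes overlapped and differed by 0.49 (SE 0.38, adjusted p = 0.43 from limma), by -0.61 within the first series and 1.05 within the second.

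Fitm2, the FITM gene of fat, lay at 0.22, -2.59 and 0.22 in WT scWAT and at -0.30, 0.28 and 0.69 in Lr11 -/- scWAT. The difference of 0.94 (SE 0.64, adjusted p = 0.36 from limma) was 0.01 without WT scWAT replicate 2. Fitm1, the FITM gene of skeletal muscle, was well above background on 6 of the 12 arrays and on all 3 arrays of no group, and was therefore not tested. On the 5 arrays with high skeletal muscle genes it lay between 0.80 and 4.43, and on the other 7 between -6.62 and -4.21. The genotypes overlapped in both tissues. The 3 genes closest to it over the 12 arrays were Pvalb, Neb and Acta1 (Pearson r of 0.995, 0.993 and 0.992), all of them genes of muscle fibres.

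**Figure D2:**
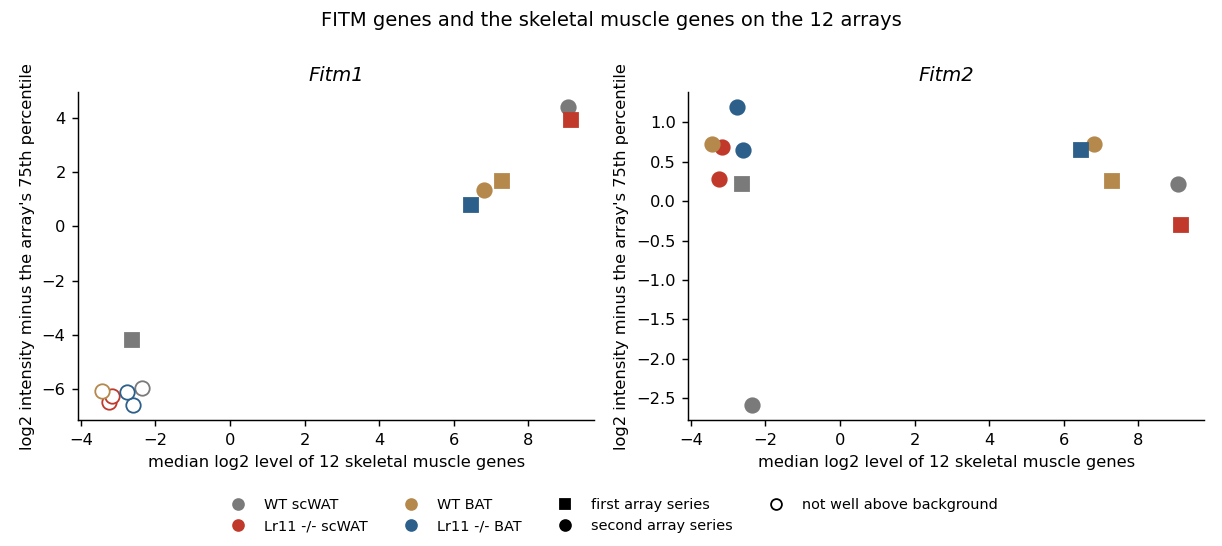
Level of Fitm1 (left) and Fitm2 (right) on each array, as log2 intensity minus the 75th percentile, against the median log2 level of 12 skeletal muscle genes on the same array. Colours give the 4 groups, squares the first and circles the second array series, and open symbols signals not well above background; the 5 arrays with high muscle genes have Fitm1 at 0.80 or above, and Fitm2 shows no such split.

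Counted together, 9 members were bright enough on all 3 arrays of at least 1 group to be tested, Cidea only through the groups in which it was high. Between the genotypes in scWAT, 1 of the 9 passed an adjusted p of 0.05 in limma, Cidea, which was higher in Lr11 -/-. Of all 32121 probes tested 5.27% passed, 3.4% higher and 1.87% lower in Lr11 -/-, a share that single arrays moved widely. At an unadjusted p under 0.05 there were 4 members (Cidea, Cideb, Plin1 and Plin5), against 27.6% of all probes. The groups did not overlap for 1 member, Cidea, and for 20.4% of all probes. The means of 8 members were higher in Lr11 -/-, with a median difference of 1.39 against 0.04 over all probes. Of the 8 adipocyte markers 7 also had a higher mean in Lr11 -/- scWAT, with a median difference of 1.17. The share of all probes with a higher mean was not computed. Leaving out Lr11 -/- scWAT replicate 1 raised the count to 4 (Cidea, Cideb, Plin2 and Plin5), with 19.8% of all probes. Leaving out WT scWAT replicate 1 or 3 gave 2 members each, with 13.7% and 14.4% of all probes. Leaving out WT scWAT replicate 2 gave 0 members and 0.691% of all probes. Leaving out Lr11 -/- scWAT replicate 2 or 3 gave 0, with 28 and 3 probes in all. Leaving out any 1 BAT array gave 0, with 0.451% to 0.545% of all probes. Without the 5 arrays with high skeletal muscle genes, a choice made after seeing the data, 4 members and 11.2% of all probes passed.

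**Figure D3:**
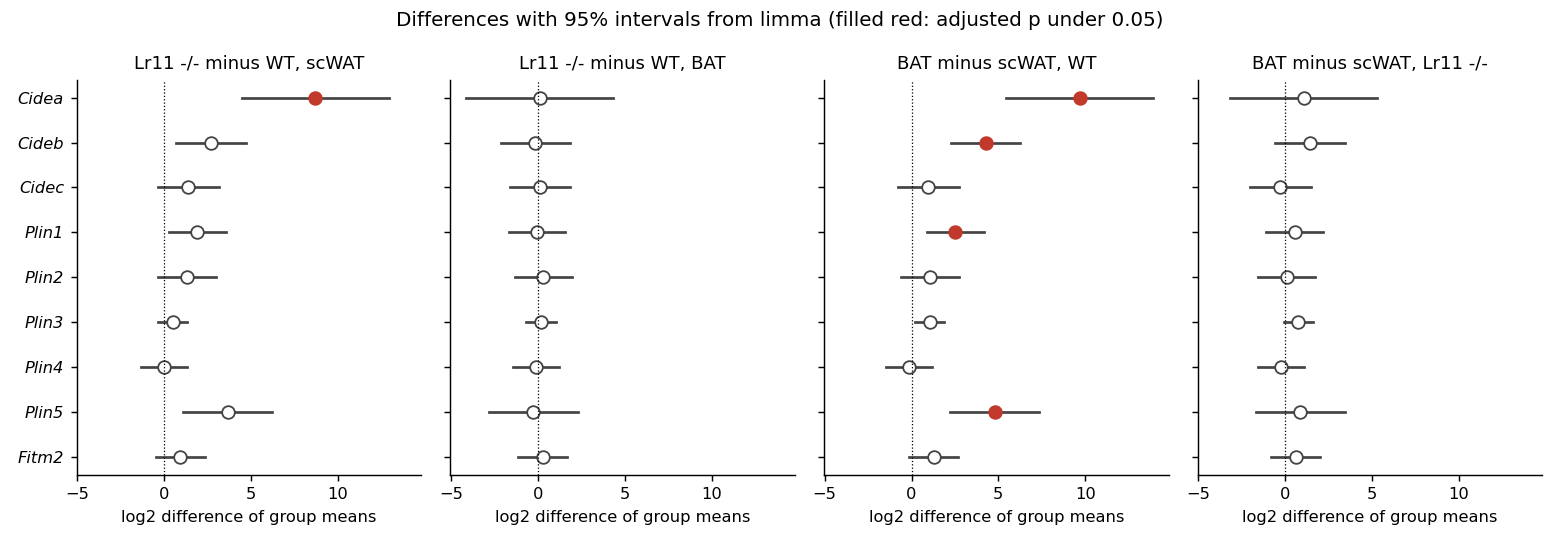
Log2 differences (horizontal axis) of the 9 tested members between genotypes in scWAT and BAT and between tissues in WT and Lr11 -/- mice, with 95% intervals from limma over all 12 arrays. Filled symbols passed an adjusted p of 0.05, 1 member for the genotypes in scWAT and 4 for the tissues in WT; in the other panels none passed, and the largest difference is 1.41 (Cideb between the tissues of Lr11 -/- mice).

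The scWAT differences were not alike in the array series. In the first series, with 1 array a group, 7 of the 9 members were lower in Lr11 -/- than in WT and 2, Cidea and Plin5, were higher. In the second, with 2 arrays a group, all 9 were higher, by 0.37 (Plin4) to 10.53 (Cidea, 10.11 with the bound given above). In the first series the Lr11 -/- array and in the second the WT replicate 3 array held high skeletal muscle genes, and the adipocyte markers were low on WT replicate 2, so the pairs differed in more than genotype.

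**Figure D4:**
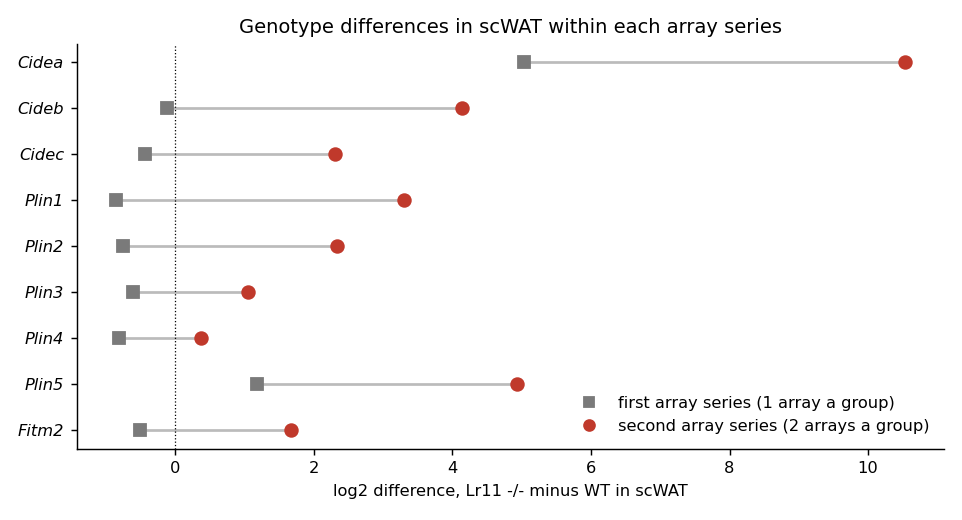
Log2 difference between Lr11 -/- and WT scWAT (horizontal axis) within the first array series (grey squares, 1 array a group) and the second (red circles, means of 2 arrays a group) for the 9 tested members. Every circle lies to the right of 0, and every square except those of Cidea and Plin5 lies to its left.

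Between the genotypes in BAT, none of the 9 members passed in limma, none had an unadjusted p under 0.05, and 0.0187% of all probes passed, with 2.12% at an unadjusted p under 0.05. The differences ran from -0.25 (Plin5) to 0.32 (Plin2). The 95% intervals from limma ran from -0.65 to 1.03 for Plin3, the narrowest, and from -4.13 to 4.33 for Cidea, the widest. True differences within these intervals are not excluded. The intervals take their spread from all 4 groups, and the scWAT arrays were wider apart than the BAT arrays. By its brightest probe, Plin4 was the one member whose BAT groups did not overlap, with 6.98, 6.98 and 6.87 in Lr11 -/- and 7.05, 7.09 and 7.04 in WT, a difference of -0.11, where 12% of all probes did not overlap. The second probe of Cidec did not overlap either, with 5.54, 5.36 and 5.20 in Lr11 -/- and 5.14, 5.19 and 4.69 in WT.

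In WT mice 4 of the 9 members passed in limma, all higher in BAT than in scWAT. They were Cidea with a difference of 9.67 (SE 1.91, adjusted p = 0.00765 from limma), or 9.39 with the dim array at its bound, Plin5 with 4.79 (SE 1.16, adjusted p = 0.016), Cideb with 4.26 (SE 0.91, adjusted p = 0.00997) and Plin1 with 2.52 (SE 0.74, adjusted p = 0.032). Of all probes 24.8% passed, 15.7% higher and 9.13% lower in BAT. Tissue and slide cannot be told apart within the first series, whose scWAT and BAT arrays were on different slides. In the second series, which shared a slide, Cidea differed by 10.38, or 9.96 with the bound. Plin5 differed there by 5.37, Cideb by 4.26 and Plin1 by 3.59. Unadjusted, 5 members were under 0.05, against 40.1% of all probes, the fifth being Plin3 with 1.05 (adjusted p = 0.067 from limma). The groups did not overlap for 6 members, those 5 and Fitm2, against 40.2% of all probes. Without WT BAT replicate 2, with 10.2% of all probes, Cidea and Cideb passed, and Plin5 had an adjusted p of 0.057 and Plin1 of 0.092 in limma. Plin1 also missed the threshold without WT scWAT replicate 2 (a difference of 1.60) or 3 (2.55), or WT BAT replicate 1 (2.70) or 3 (2.39). Without WT scWAT replicate 2, Plin4 was lower in BAT and passed (difference -1.04, adjusted p = 0.032 from limma). Without Lr11 -/- scWAT replicate 1, Plin3 passed as well (difference 1.05, adjusted p = 0.021 from limma), and without the 5 arrays with high skeletal muscle genes Cideb alone passed, so the count was 1, with 7.35% of all probes.

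In Lr11 -/- mice none of the 9 passed between the tissues in limma and none had an unadjusted p under 0.05. Of all probes 0.0405% passed, 9% had an unadjusted p under 0.05 and 23.2% did not overlap, as did 2 members, Cidec and Plin3. Plin3 was 0.74 higher in BAT (95% interval -0.10 to 1.58, adjusted p = 0.60 from limma). Cidea was 1.07 higher in BAT (95% interval -3.16 to 5.31, adjusted p = 0.88 from limma), by 3.51 in the first series and by -0.15 in the second. The first-series scWAT and BAT arrays were on different slides, scanned separately, so tissue and slide cannot be told apart in the former value, whereas the second series shared a slide. The missed threshold therefore does not show that Lr11 -/- scWAT and BAT were alike. Array by array, both second-series Lr11 -/- scWAT arrays were within the range of the 6 BAT arrays for 5 of the 9 tested members (Cideb, Plin1, Plin3, Plin5 and Fitm2) and above it for 3, Cidea, Cidec and Plin2. For Plin4 replicate 2 was just below that range. The share of all probes within or above their BAT range was not computed, so these counts do not set the members apart from other genes.

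**Figure D5:**
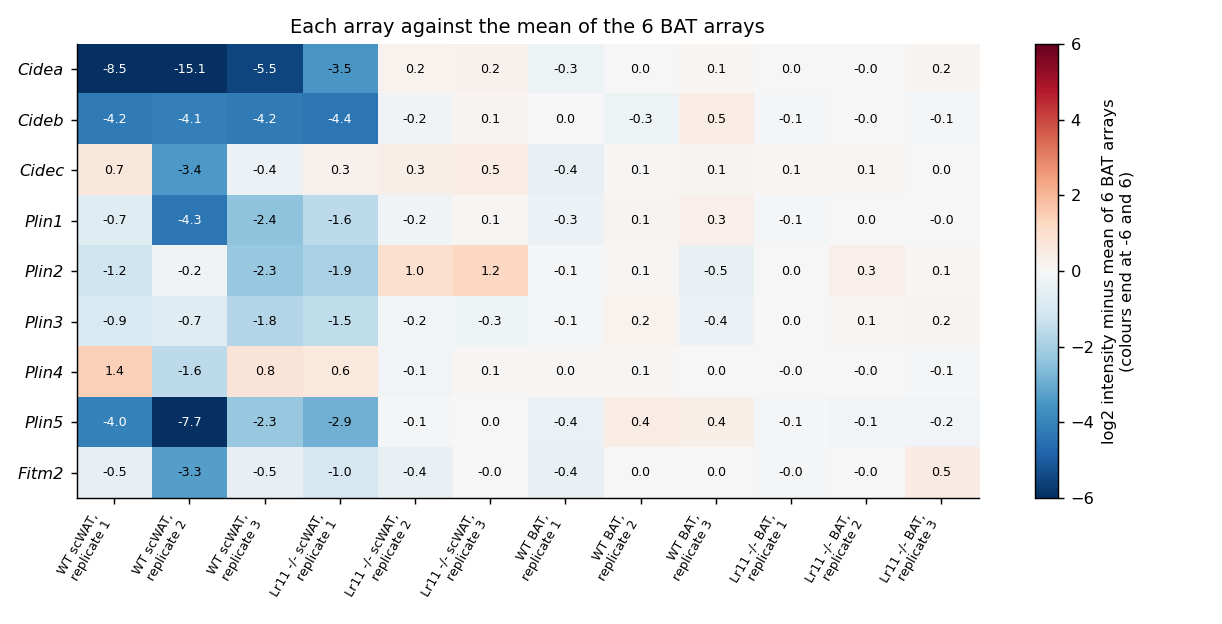
Level of the 9 tested members on each array minus the mean of the 6 BAT arrays, in log2 units (numbers and colours, which end at -6 and 6). The WT scWAT arrays and Lr11 -/- scWAT replicate 1 are low for Cidea, Cideb and Plin5, and Lr11 -/- scWAT replicates 2 and 3 are close to BAT in all rows, with Plin2 higher.

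The genotype effects in the 2 tissues were compared by the interaction, the scWAT difference minus the BAT difference. None of the 9 members passed in limma, nor did any probe (0%), and 3 members had an unadjusted p under 0.05, against 11% of all probes. They were Cidea with 8.60 (SE 2.71, adjusted p = 0.40), Plin5 with 3.93 (SE 1.64, adjusted p = 0.43) and Cideb with 2.85 (SE 1.29, adjusted p = 0.45), all from limma. Without Lr11 -/- scWAT replicate 1 the interaction of Cideb was 4.29 and passed (adjusted p = 0.0013 from limma), with 3.71% of all probes.

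The order of the 4 group means differed between members. WT scWAT was lowest for 8 of the 9 tested members, and the exception was Plin4, which was lowest in Lr11 -/- BAT. In the order of the means, neighbouring groups did not overlap at 3 steps and overlapped at all others. Those of Cidea did not between Lr11 -/- scWAT and WT scWAT, as for 20.4% of all probes. Those of Cidec did not between Lr11 -/- scWAT and Lr11 -/- BAT (23.2% of all probes), where its second probe overlapped. Those of Plin4 did not between WT BAT and Lr11 -/- BAT (12% of all probes).

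Genes that work with the droplet coat were read from lists drawn up with earlier results known. Against 3.4% of all probes higher and 1.87% lower, 3 of 14 genes of lipolysis were higher in Lr11 -/- scWAT and none lower in limma. They were Ces1f, a carboxylesterase, with 2.91 (SE 0.53, adjusted p = 0.030), Adrb3, the β3-adrenergic receptor that starts lipolysis, with 4.89 (SE 1.11, adjusted p = 0.042), and Abhd6, a monoacylglycerol lipase, with 2.87 (SE 0.71, adjusted p = 0.047). The 2 main lipases and the coactivator that perilipin 1 releases did not pass, with 2.10 for Pnpla2 (adjusted p = 0.073), 2.08 for Lipe (adjusted p = 0.13) and 1.39 for Abhd5 (adjusted p = 0.068, all from limma). The median of the list was 2.08, and 12 of the 14 means were higher in Lr11 -/- scWAT. Hilpda and Pnpla7 went the other way and did not pass. Hilpda had a mean level of 3.30 in WT and 0.86 in Lr11 -/- scWAT, and Pnpla7 0.86 and 0.80. Between the tissues of WT mice 8 of the 14 were higher in BAT, against 15.7% of all probes, led by Adrb3 with 4.91 (adjusted p = 0.012 from limma).

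Of 11 tested genes of triglyceride synthesis and droplet formation none passed between the genotypes in scWAT, against 5.27% of all probes, with a median difference of 1.37. Higher in WT BAT than in WT scWAT were 2 of the 11, against 15.7% of all probes. Gpat4 had 1.94 (adjusted p = 0.0049) and Dgat1, which makes triglyceride, 2.04 (adjusted p = 0.030, both from limma). Of 17 tested other droplet surface proteins none passed between the genotypes in scWAT, with a median of 0.13. Higher in WT BAT were 2 of the 17, again against 15.7% of all probes. Vps13c had 1.64 (adjusted p = 0.010) and Aifm2 2.45 (adjusted p = 0.029, both from limma). Of 14 regulators of these genes, 2 were higher in Lr11 -/- scWAT, against 3.4% of all probes. Ppargc1a, the coactivator of mitochondrial genes, had 4.50 (SE 0.91, adjusted p = 0.037 from limma). Ppara, the PPAR of fat oxidation, had 4.77 (SE 1.22, adjusted p = 0.0498 from limma). Pparg, the PPAR of adipocytes, differed by 2.23 (adjusted p = 0.060 from limma). In WT mice 8 of the 14 were higher in BAT, against 15.7% of all probes. The 5 scWAT calls named in these lists held on leaving out 3 or 4 of the 12 arrays in turn and were lost on leaving out each of the others, with adjusted p up to 0.13 (Ces1f) to 0.20 (Ppara) in limma. None of these lists had a call in BAT between the genotypes, or between the tissues of Lr11 -/- mice.

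Among 8 brown adipocyte genes 3 were higher in Lr11 -/- scWAT in limma, against 3.4% of all probes. These 3 were Ebf2 with 1.54, Ucp1 with 10.14 and Cox7a1 with 5.70. Each of these calls was lost on leaving out 8 or 9 of the 12 arrays in turn. Ucp1 was not well above background on WT scWAT replicate 2 (-4.52) and was tested only through the groups in which it was high. The size of its difference is therefore limited by background. Zic1 and Lhx8 of the same list had lower means in Lr11 -/- scWAT and did not pass, with -1.65 (adjusted p = 0.54) and -2.67 (adjusted p = 0.14, both from limma). None of the 8 adipocyte, 7 tested macrophage, 4 tested B lymphocyte, 4 tested epithelial, 5 endothelial, 7 tested skeletal muscle or 2 tested hepatocyte markers passed between the genotypes. Of all probes 5.27% passed in scWAT and 0.0187% in BAT.

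Genes with a pattern most like a member over the 12 arrays were taken from 14709 other genes, by Pearson r with no test, since the arrays share tissue and series. For Cidea they were Apoo, Coq9 and Ndufc1 (r of 0.996, 0.994 and 0.993) and for Plin5 Ndufb9, Mat2b and Ndufs4 (0.995, 0.990 and 0.990), of which Apoo, Coq9, Ndufc1, Ndufb9 and Ndufs4 encode mitochondrial proteins. For Plin1 they were Aifm2, Adra1a and Aqp7 (0.991, 0.988 and 0.988), the first a droplet protein and the last a glycerol channel. For Cidec they were Klb, Cmbl and Tom1l1 (0.990, 0.979 and 0.977), and for Plin4 Retnla, Rai2 and Fam189a2 (0.972, 0.954 and 0.943). For Plin2 they were Abitram, Coq8b and Pisd (0.959, 0.955 and 0.942), for Plin3 Rpa3, Pnpla6 and Dip2a (0.982, 0.982 and 0.981), and for Fitm2 Ptpn4, Kif1b and Lims2 (0.973, 0.971 and 0.971). Between perilipins r varied. Plin4 had an r of -0.50 with Plin2, -0.37 with Plin3 and 0.37 with Plin1, and Plin1 and Plin5 had 0.91.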

How the data were processed

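RNA of whole tissue was labelled with Cy3 by a low input kit and hybridised to one-colour Agilent mouse 8x60K arrays. The authors deposited the scanner output of Feature Extraction 10.10.1.1, whose gProcessedSignal is a background-corrected intensity on a linear scale, and a table of the same intensities, which held the same values. Control spots and outlier spots (128 to 181 an array) were left out. Log2 was taken and the log2 of the array's 75th percentile (an intensity of 374 to 632) was subtracted. The spots of a probe were then averaged. Probes were named through RefSeq accessions, of which 28685 probes had one and 27235 matched a gene. Tests covered the 32121 probes that passed the background call throughout 1 or more groups of 3 arrays, in limma 3.58.1 (R 4.3.3) with 4 group means, empirical Bayes moderation and Benjamini-Hochberg adjustment over all tested probes at 0.05. Single ratios had a two-sided exact permutation test. The brightest probe stood for a gene. Groups came from the labels. Precision is limited by how few arrays there were.

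The members, lists and comparisons were chosen with earlier results of these data known, and Hoxc9 and Hoxc10 after their values were seen. Genes named beside the members are the 3 with the highest Pearson r (those of Cideb are not reported here) and the listed genes that passed or act directly on the droplet coat. The analysis was tested on simulated data. The alternatives were another background correction, normalization and filter, slide or series blocks, array weights, subsets of arrays and leaving out each array.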

Additional observations from a re-analysis of the deposited data

How the results depend on the processing

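Between the genotypes in scWAT 1 member passed. None passed with no filter on dim probes (0.271% of all probes passed) or with a filter on all 12 arrays (6.37%, Cidea not tested). None passed with the slide as a block (2.84%) or with only the 6 scWAT arrays (0%). In the second array series alone 4 passed (22.6% of all probes, against 5.27% in the main fit), and 5 with array quality weights (12.6%). Leaving out 1 array gave 0 to 4. Between the tissues of WT mice 4 passed (24.8% of all probes), with 2 under the slide block (12.4%) and 2 with only the arrays of those groups (12.2%). Leaving out 1 array gave 2 to 5 there. For the interaction, where 0 passed, 1 passed in the second series alone (2.77% of all probes) and 3 with array weights (4.75%), and 0 to 1 on leaving out 1 array. The cause was not tested. In BAT and between the tissues of Lr11 -/- mice 0 passed under every alternative. The scWAT difference of Cidea kept its sign, at 5.996 to 12.1, with an adjusted p of 0.00598 to 0.315 in limma, under 0.05 in 14 of 26 alternatives. No paired analysis was possible because the labels give no replicate numbers, and the numbers used here only name arrays in accession order. The array series as a block moved no count of members by over 1.5 times. Probes dim in WT scWAT, such as Cidea, are limited there by background.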
